A study of Mus musculus with 12 samples.

Results

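The genes described here are 41 factors that write, erase, read or package heterochromatin and DNA methylation: methyltransferases and demethylases of histone H3 lysine 9, DNA methyltransferases, Tet dioxygenases, methyl-CpG binders and proteins that work with heterochromatin protein 1 (HP1). They were chosen by gene symbol, and no methyltransferase of H4 lysine 20 is among them. Of the 41, 38 stood alone on an array feature, of 19938 genes in all, and all 38 cleared the signal floor on 1 array or more, which placed them among the 10880 genes tested. Suv39h1 had no annotated feature here, Adnp and Mphosph8 lay only on features shared with another gene, and these 3 are not analysed here.

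The study compared mouse embryonic stem cells (ESCs) with embryoid bodies (EBs), the aggregates that ESCs form when they differentiate in suspension, in 3 genotypes. ESC WT and EB WT carried the label of line HM1, with no knockout, while ESC HP1aKO and EB HP1aKO (Cbx5-/-, lacking HP1alpha) and ESC HP1bKO and EB HP1bKO (Cbx1-/-, lacking HP1beta) carried that of line R1. Each of the 6 groups held 2 biological replicates, no agent was given to any of them, and EBs were collected at day 7, after withdrawal of the cytokine LIF. ESCs grew on mitomycin-C treated fibroblast feeders, and the methods describe a magnetic sort on SSEA-1, a surface marker of undifferentiated mouse cells. The methods instead call HM1 the wild-type littermate control of the knockout lines. If the line labels hold, the effect of a knockout and that of the line cannot be told apart. The number of independent clones behind each genotype was not given in the sources used here, so p-values measure the spread between replicate cultures. That spread was pooled over all groups in a fit and moderated over genes.

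HP1 proteins bind methylated lysine 9 of histone H3, a mark laid by the Suv39h, Setdb1 and Ehmt enzymes, and hold chromatin in a compact and silent state. DNA methylation is a second layer on the same regions. Dnmt3a and Dnmt3b add it to unmethylated sites with the help of Dnmt3l, a relative without activity of its own. Dnmt1 and Uhrf1 copy it at replication, and the Tet enzymes start its removal by oxidation. Pluripotent cells are known for high levels of Dnmt3b, Dnmt3l, Tet1 and Zfp57, a zinc finger protein that guards methylation at imprinted regions together with Trim28.

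The sequences just before the starts of 4 members that fell from ESCs to EBs are shown first, because CpG is the dinucleotide that these enzymes modify. Each is the 250 bases before a RefSeq start on GRCm38.p6, 5′ to 3′ on the gene's own strand, with every CpG in capitals. Dnmt3l and Zfp57 had 3 windows each, and the window with the most CpG is printed, whereas Dnmt3b and Tet1 had 1 window each. These starts are not always the outer end of the RefSeq gene. The gene span begins at 153649411 for Dnmt3b and at 62887469, on the minus strand, for Tet1, inside the printed windows. The Zfp57 span, 37001163 to 37010729, holds the whole printed window.
Dnmt3l (chr10:78042037-78042286, plus strand): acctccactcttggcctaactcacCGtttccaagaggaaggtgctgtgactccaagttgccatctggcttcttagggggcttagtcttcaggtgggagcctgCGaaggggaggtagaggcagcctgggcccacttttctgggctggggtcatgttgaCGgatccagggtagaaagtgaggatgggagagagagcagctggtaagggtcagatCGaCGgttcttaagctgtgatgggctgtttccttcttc
Zfp57 (chr17:37002275-37002524, plus strand): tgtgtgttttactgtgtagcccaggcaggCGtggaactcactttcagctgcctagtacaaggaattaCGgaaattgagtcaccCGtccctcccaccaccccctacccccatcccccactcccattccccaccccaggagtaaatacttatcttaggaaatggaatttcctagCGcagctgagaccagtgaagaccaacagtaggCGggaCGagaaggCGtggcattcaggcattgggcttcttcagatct
Dnmt3b (chr2:153649199-153649448, plus strand): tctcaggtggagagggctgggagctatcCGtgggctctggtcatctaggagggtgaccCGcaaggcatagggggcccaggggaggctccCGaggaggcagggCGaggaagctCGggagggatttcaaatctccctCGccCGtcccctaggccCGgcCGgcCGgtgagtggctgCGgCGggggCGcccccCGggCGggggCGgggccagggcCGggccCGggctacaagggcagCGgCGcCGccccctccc
Tet1 (chr10:62887325-62887574, minus strand): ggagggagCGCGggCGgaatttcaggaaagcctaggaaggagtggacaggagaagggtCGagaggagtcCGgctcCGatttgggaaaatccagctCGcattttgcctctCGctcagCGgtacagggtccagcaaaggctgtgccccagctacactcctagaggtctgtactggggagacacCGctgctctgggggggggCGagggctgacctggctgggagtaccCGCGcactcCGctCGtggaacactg
The Dnmt3l window held 5 CpG and that of Zfp57 held 7, against 21 for Dnmt3b and 15 for Tet1. Of the 32 tested members with such a window, 3 (9.4%) had fewer than 10 CpG in every window, Dnmt3l, Zfp57 and Atrx, compared with 18% of the 8754 tested genes with a window. The median of the highest count was 24.5 CpG for members and 18 for tested genes. Methylation itself was not measured, and the counts describe letters only.

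**Figure D1:**
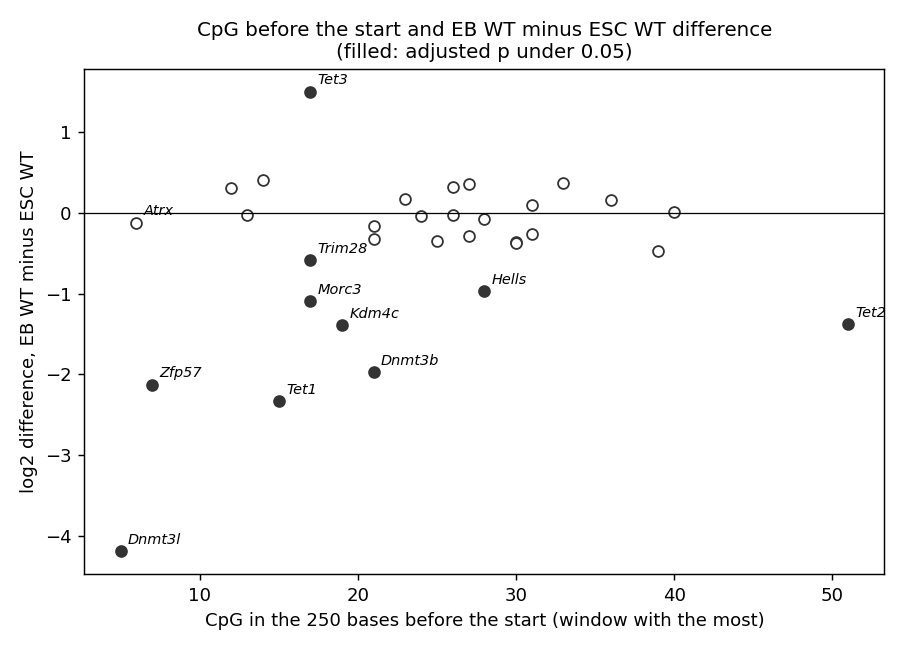
CpG count in the 250 bases before the start (x axis, window with the most CpG) against the log2 difference EB WT minus ESC WT (y axis) for the 32 tested members with a window; filled points passed an adjusted p of 0.05. Dnmt3l (5 CpG) and Zfp57 (7 CpG) lie at the left the first with EB arrays under the floor (at least 11.8-fold lower) and the second at -2.12, Atrx (6 CpG) lies near 0, and Tet2, at the far right with 51 CpG, fell by 1.38.

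All values are log2 signals of Affymetrix arrays after robust multi-array averaging (RMA), with a floor at a signal of 45, 5.49 on that scale, taken from the study's methods. The targeted genes checked the labels. Cbx1 read 7.59 to 7.99 in the 4 HP1bKO libraries and 9.36 to 10.05 in the other 8. Cbx5 was lower in EB HP1aKO (9.20 and 9.21) than in EB WT (10.36 and 10.40), but in ESCs it was 9.66 and 8.29 in the libraries labelled ESC WT 1 and 2, and 8.04 and 10 in those labelled ESC HP1aKO 1 and 2. The Cbx5 levels of the libraries labelled ESC WT 2 and ESC HP1aKO 2 thus went against their labels. The spread between replicates, as a standard deviation over all genes tested, was 0.39 to 0.57 in ESC groups and 0.13 to 0.20 in EB groups. Differences below are given with their standard error, and adjusted p is limma's, by Benjamini-Hochberg over the 10880 genes.

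The first comparison asked how the factors change as wild-type cells leave pluripotency. In WT, 12 of 38 members (31.6%) changed between ESCs and day 7 EBs, against 35.2% of all genes tested. Higher in EBs were 3 members, where 21.4% of all genes were, and lower were 9, where 13.8% of all genes were. The falls lay in DNA methylation (Dnmt3l, Dnmt3b, Tet1, Tet2), in the Zfp57 and Trim28 pair, and in Kdm4c, Morc3 and Hells, whereas Mbd1, Mbd2 and Tet3 rose. Of the 5 measured H3K9 methyltransferases, 3 deacetylases, 4 histone chaperones and 2 nuclear envelope proteins none passed the test in WT, although Setdb2, an H3K9 methyltransferase, exceeded the floor on 1 of 12 arrays only and a change of it could not be shown. EBs hold many cell types, and in such bulk samples fewer cells of a type and less RNA per cell cannot be told apart.

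Dnmt3l, the cofactor of the de novo methyltransferases, read 8.75 and 9.35 in ESC WT and 4.79 and 4.94 in EB WT. Both EB arrays lay under the floor, so its fall was at least 11.8-fold when EBs are set to the floor, with an adjusted p of 1.162e-06. Dnmt3b, one of the de novo enzymes, read 10.54 and 9.70 in ESC WT and 8.12 and 8.17 in EB WT, a fall of 1.97 ± 0.31 on the log2 scale (3.93-fold, adjusted p = 0.0008959). The groups were apart for both genes. Dnmt3a, the other de novo enzyme, stayed between 8.30 and 8.41 on all 4 arrays, with a difference of 0.00 and a 95% interval from -0.58 to 0.59. Dnmt1, the maintenance enzyme, and its partner Uhrf1 did not pass the test, with differences of -0.03 and -0.36.

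The Tet dioxygenases moved in opposite directions. Tet1 read 8.79 and 10.24 in ESC WT and 7.13 and 7.23 in EB WT, which made it 2.33 ± 0.37 lower in EBs (5.04-fold, adjusted p = 0.000893). The arrays of the groups did not overlap, although the ESC replicates differed by more than 1 log2 unit. Its other features on the array gave -2.33 and -2.19. Tet2 read 6.12 and 7.37 in ESC WT and 5.21 and 5.53 in EB WT, where 1 of 2 arrays exceeded the floor, and was lower by 1.38 ± 0.37 (adjusted p = 0.01662). Tet3, the family member best known from the zygote and from neurons, read 4.91 and 5.05 in ESC WT, under the floor, and 6.35 and 6.61 in EB WT, at least 1.98-fold higher (adjusted p = 0.002409). A dimmer Tet3 feature gave a smaller rise of 0.59.

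Among the readers, Mbd2, which binds methylated CpG and brings the NuRD deacetylase complex, rose from 7.11 and 6.68 in ESC WT to 8.29 and 8.41 in EB WT. Its rise of 1.46 ± 0.24 was 2.75-fold (adjusted p = 0.001053). Mbd1, another binder of methylated CpG, read 6.78 and 6.62 in ESC WT and 7.18 and 7.25 in EB WT, a rise of 0.52 ± 0.14 (adjusted p = 0.01569). Neither gene had overlapping groups. Mbd3, a NuRD subunit, differed by 0.40 and did not pass the test.

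Zfp57 read 8.94 and 10.32 in ESC WT and 7.51 and 7.50 in EB WT, lower by 2.12 ± 0.34 (4.36-fold, adjusted p = 0.001061). Its corepressor Trim28, which recruits Setdb1 and HP1, was lower by 0.58 ± 0.17 (adjusted p = 0.02067). Kdm4c, a demethylase of H3 lysine 9, read 8.77 and 9.04 in ESC WT and 7.41 and 7.62 in EB WT, a fall of 1.39 ± 0.19 (2.62-fold, adjusted p = 0.00037). The other 5 demethylases did not pass the test. Hells, a helicase needed for methylation of repeats, read 10.20 and 10.31 against 9.19 and 9.37 and fell by 0.97 ± 0.21 (adjusted p = 0.005043). Morc3, an ATPase of silenced chromatin, fell by 1.09 ± 0.23 (adjusted p = 0.004983). No pair of groups overlapped for these 5 genes. The 26 members that did not pass ranged from -0.48 (Sirt1) to 0.40 (Mbd3), and the interval of each stayed within 1 log2 unit of 0.

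**Figure D2:**
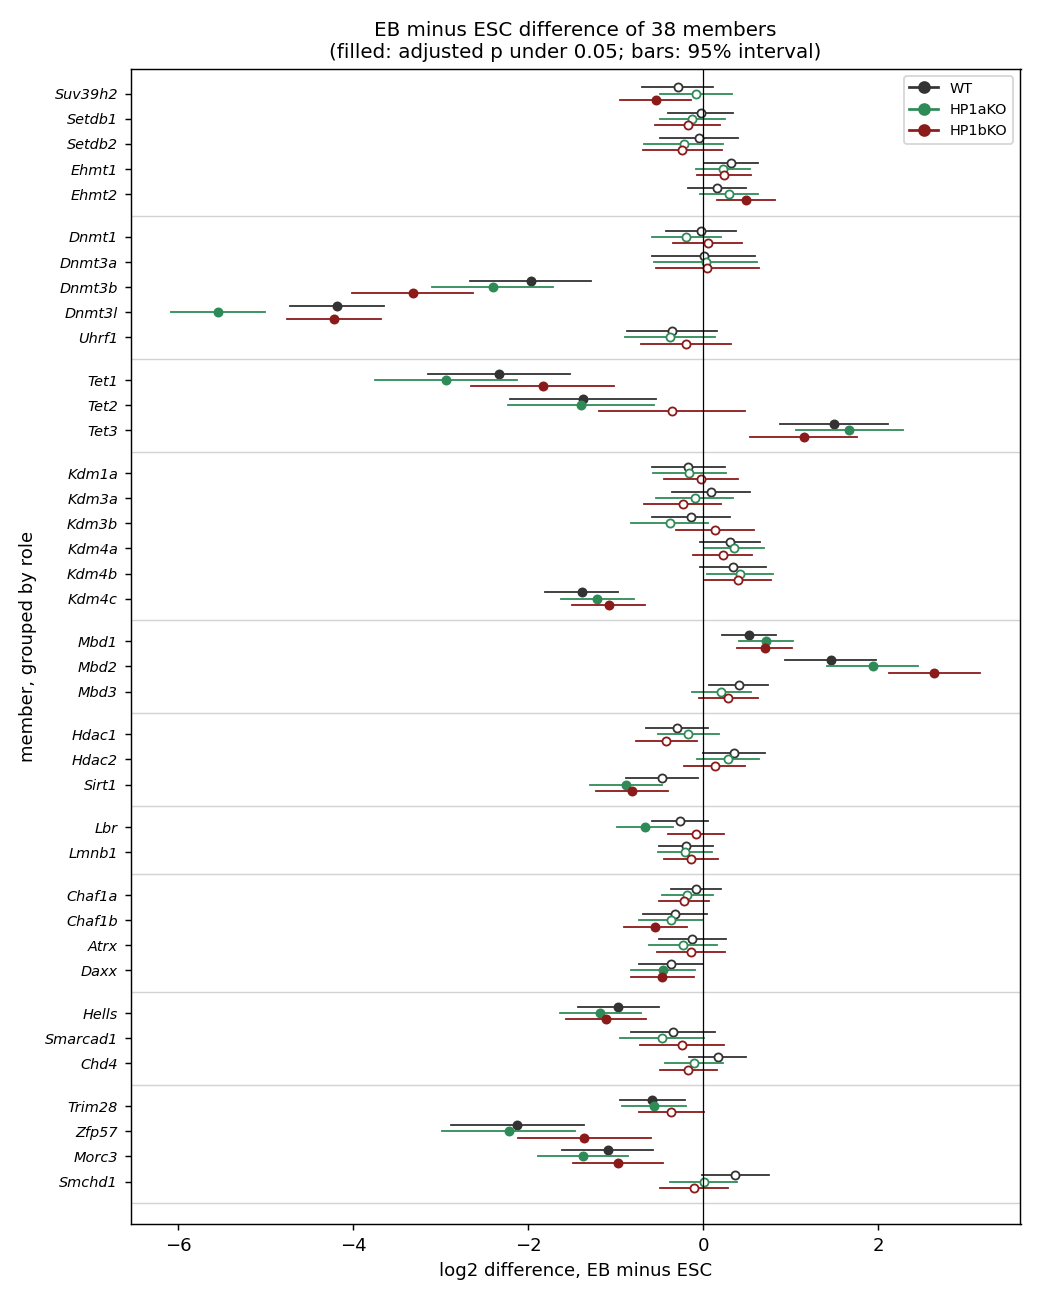
EB minus ESC log2 difference (x axis) of the 38 members (y axis, grouped by role) in WT, HP1aKO and HP1bKO; points are estimates, filled where adjusted p was under 0.05, and bars are 95% intervals. Dnmt3l, Dnmt3b, Tet1, Zfp57 and Kdm4c lie left of 0 in each genotype, Mbd2, Mbd1 and Tet3 lie right of it, and most other members lie near 0.

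The ESC libraries set how firm these falls are. Without the library labelled ESC WT 2, whose Cbx5 opposed the label, 1 ESC WT array was left. Fewer members and fewer of all genes then passed. Zfp57 was lower by 1.43, Tet1 by 1.61, Morc3 by 0.77 and Tet2 by 0.75, smaller falls than with both arrays. Dnmt3b was lower by 2.39, a greater fall. Markers of other cell types moved alongside: 14 of 16 pluripotency markers fell, and their summed signal was 18089 to 27585 in ESC WT and 3019 to 3312 in EB WT, with 6 of 16 under the floor in EB WT. Cardiac sarcomere markers rose from 375 to 401 up to 7452 to 7834, with 10 of 12 called. Their part in the members' changes was not tested.

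The same comparison was made within each knockout, with no array shared between genotypes. In HP1aKO 15 members (39.5%) changed, against 40.6% of all genes, 3 higher (24.3% of all genes) and 12 lower (16.3%). In HP1bKO 15 (39.5%) changed, against 36.1%, 4 higher (21.5%) and 11 lower (14.6%). Called in the same direction in all 3 genotypes were 10 members (26.3%), compared with 22.5% of all genes: Mbd1, Mbd2 and Tet3 rose, and Dnmt3b, Dnmt3l, Tet1, Kdm4c, Hells, Zfp57 and Morc3 fell. In each knockout 14 of 16 pluripotency markers fell as well. Their summed signal went from 21835 to 25634 down to 2633 to 2805 in HP1aKO, and from 17584 to 21477 down to 4877 to 5044 in HP1bKO. Of 11 mitosis genes 7 fell in HP1aKO, 0 in HP1bKO and 1 in WT, and none rose. Of 18 S phase genes 6, 5 and 3 fell in the same order, and 1 rose in HP1bKO. The part of these markers was not tested.

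In HP1aKO, Dnmt3l read 9.30 and 9.41 in ESCs and 3.80 and 3.81 in EBs, at least 14.5-fold lower (adjusted p = 1.782e-07). Dnmt3b fell by 2.41 ± 0.31 and Tet1 fell by 2.94 ± 0.37 (adjusted p = 0.0002039 and 0.0001669), and Mbd2 rose by 1.94 ± 0.24. Outside the WT calls, Sirt1, an NAD-dependent deacetylase, fell by 0.89 ± 0.19, Lbr, the inner nuclear membrane protein that binds HP1, fell by 0.67 ± 0.14, and Daxx, a chaperone of histone H3.3, fell by 0.46 ± 0.16. Their adjusted p-values were 0.003788, 0.004415 and 0.04425. With both Cbx5-opposed libraries left out, Tet2, Daxx and Trim28 no longer passed, while Dnmt3a and Kdm4b did, and 14 members were called.

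In HP1bKO, Dnmt3b read 10.90 and 10.80 in ESCs and 7.61 and 7.44 in EBs, so that it fell by 3.32 ± 0.31 (adjusted p = 3.298e-05). Mbd2 rose from 6.80 and 6.08 to 9.18 and 8.97, by 2.64 ± 0.24 or 6.24-fold (adjusted p = 2.388e-05). Dnmt3l was at least 12-fold lower, and Zfp57 fell by 1.36 ± 0.34. Tet2 did not pass here, with a difference of -0.36 and a 95% interval from -1.19 to 0.47. Sirt1 (-0.82), Chaf1b (-0.55), the middle subunit of the replication chaperone CAF-1, Suv39h2 (-0.55) and Daxx (-0.47) fell, and Ehmt2 (0.48), the H3K9 methyltransferase G9a, rose. The call of Ehmt2 was lost when arrays were centred on their medians. Without the library ESC HP1bKO 2 only 3 members passed, Dnmt3b, Dnmt3l and Mbd2, and without ESC HP1bKO 1, 8 did.

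**Figure D3:**
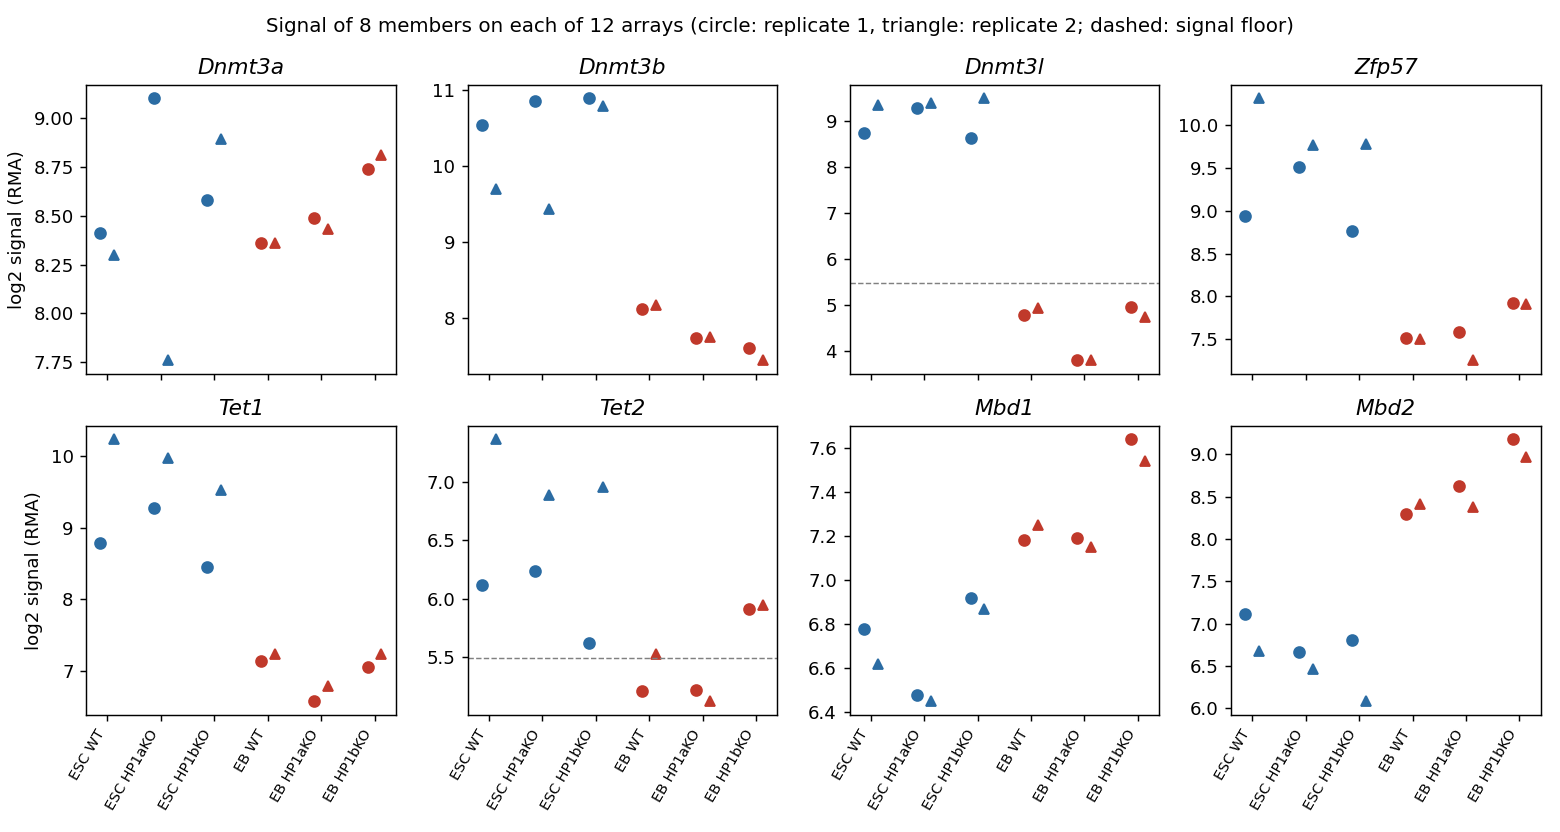
Log2 RMA signal (y axis, a scale of its own in each panel) of 8 members on each of the 12 arrays, by group (x axis); circles are replicate 1, triangles replicate 2, and the dashed line is the floor of 5.49. ESC replicates lie far apart for Tet1 and Zfp57, EB replicates lie close together, and all 6 EB arrays of Dnmt3l are under the floor.

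The next comparisons were made between the EBs of the 3 genotypes. Of 38 members, 6 (15.8%) differed between EB HP1bKO and EB WT, against 18.8% of all genes tested. Higher were 5 (9.42% of all genes), namely Mbd2, Tet2, Dnmt3a, Zfp57 and Mbd1, and lower was 1 (9.36% of all genes), Dnmt3b. The median difference was -0.07 over members and -0.01 over all genes.

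The de novo methyltransferases went opposite ways. Dnmt3b read 8.12 and 8.17 in EB WT, against 7.61 and 7.44 in EB HP1bKO, lower by 0.62 ± 0.09 (1.54-fold, adjusted p = 0.003062). Dnmt3a read 8.36 on both EB WT arrays, against 8.74 and 8.81 in EB HP1bKO, higher by 0.42 ± 0.08 (1.34-fold, adjusted p = 0.01176). Neither pair of groups overlapped. Dnmt3l, under the floor on all EB arrays, read 4.96 and 4.74 against 4.79 and 4.94 and overlapped. Dnmt1 and Uhrf1 differed by -0.03 and 0.01.

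Mbd2 was the member with the greatest rise in EB HP1bKO. It read 8.29 and 8.41 in EB WT, against 9.18 and 8.97 in EB HP1bKO, higher by 0.73 ± 0.12 (1.66-fold, adjusted p = 0.004996). Mbd1 read 7.18 and 7.25 against 7.64 and 7.54, higher by 0.37 ± 0.09 (adjusted p = 0.02142). All knockout arrays of both genes lay above the WT arrays. Tet2 read 5.21 and 5.53 in EB WT, around the floor, against 5.91 and 5.95 in EB HP1bKO, higher by 0.56 ± 0.12 (adjusted p = 0.0155). Tet1 differed by -0.04, with an interval from -0.29 to 0.22. Zfp57 read 7.51 and 7.50 against 7.92 and 7.91, higher by 0.41 ± 0.12 (adjusted p = 0.04735). The 32 members that did not pass ranged from -0.30 (Smchd1, an SMC-family protein of X inactivation) to 0.22 (Ehmt2), and the interval of each stayed within 1 log2 unit of 0.

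These calls rested on the narrow spread of the EB arrays. With all 12 arrays in 1 fit and 1 weight per state, 4 members passed (Dnmt3b, Mbd1, Mbd2 and Smchd1), and Dnmt3a, Tet2 and Zfp57 did not. With a spread shared equally over all 12 arrays no member passed in EBs, and 353 of all genes did in this comparison. Dnmt3a, Dnmt3b and Mbd2 passed when any 1 of the 4 EB arrays was left out, Tet2 and Mbd1 in 2 of 4 cases, and Zfp57 in none. The cell types also differed. In EB HP1bKO 11 of 16 pluripotency markers were higher and 2 lower, with a summed signal of 4877 to 5044 against 3019 to 3312 and none under the floor on both arrays. Cardiac sarcomere markers summed to 854 to 1202 against 7452 to 7834, with 11 of 12 lower, and fibroblast markers to 6116 to 6800 against 2639 to 2921, with 9 of 10 higher. Neural markers summed to 273 to 287 against 623 to 744, with 6 of 8 lower and none higher. Of 10 endothelial and blood markers 5 were lower and 2 higher, with sums of 4384 to 5028 against 4899 to 5469, and of 8 visceral endoderm markers 3 were lower and 1 higher. Of 18 S phase genes and 11 mitosis genes none was called in this comparison. The part of these cell types in the members' differences was not tested.

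**Figure D4:**
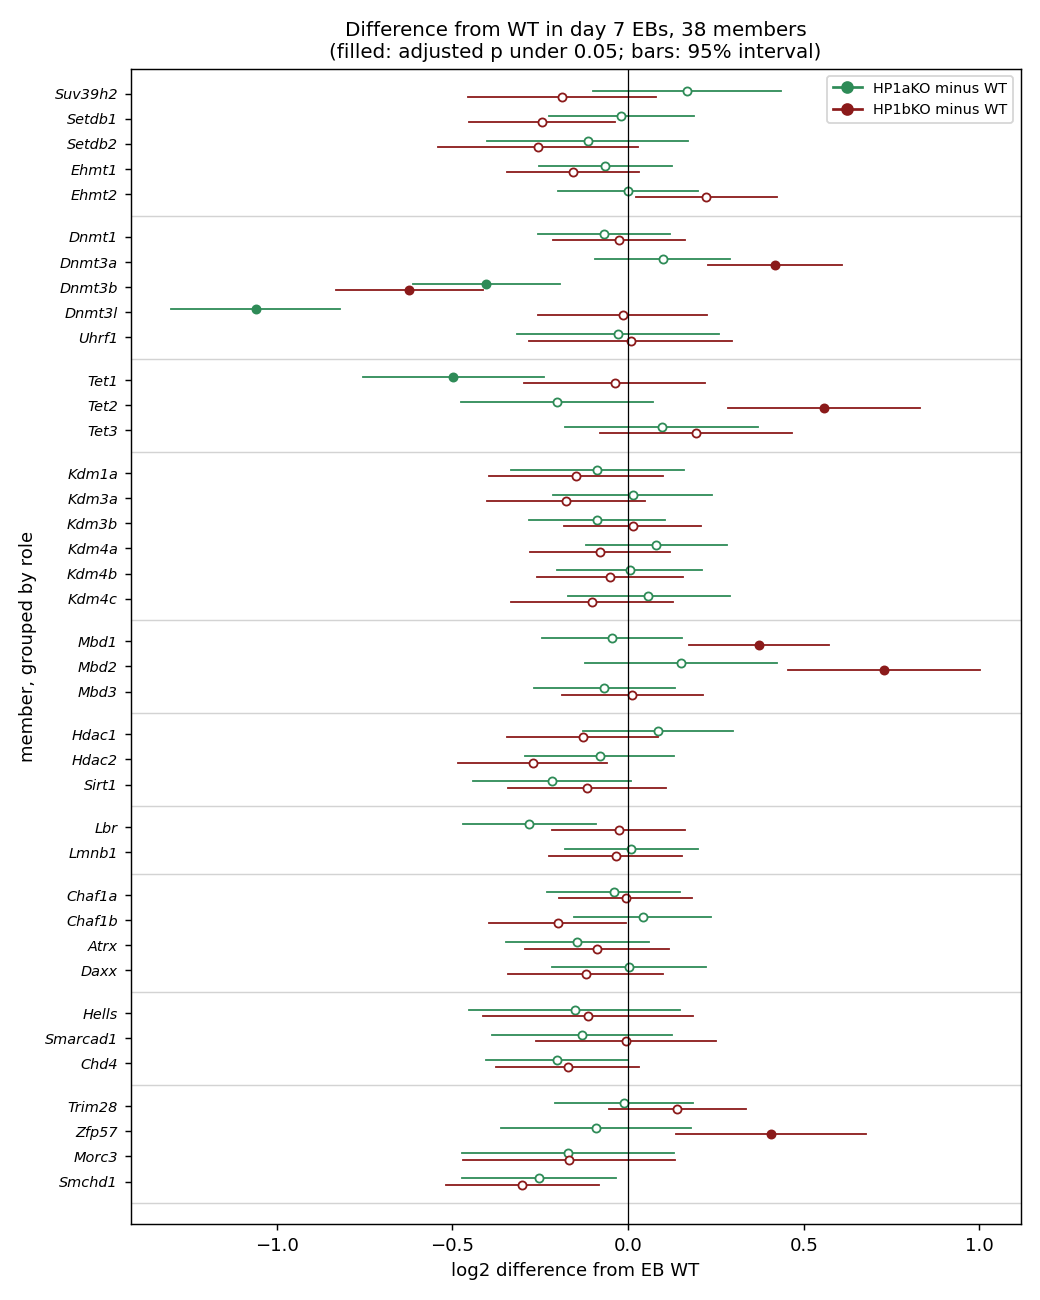
Log2 difference from EB WT (x axis) of the 38 members (y axis, grouped by role) in EB HP1aKO and EB HP1bKO; both share the EB WT arrays, filled points had an adjusted p under 0.05, and bars are 95% intervals. Dnmt3b is filled in both, Tet1 and Dnmt3l (under the floor on all EB arrays) in EB HP1aKO, and Dnmt3a, Tet2, Mbd1, Mbd2 and Zfp57 in EB HP1bKO.

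The loss of HP1alpha was examined in the same way. In EB HP1aKO 3 members (7.89%) differed from EB WT, against 12.1% of all genes tested. These were Dnmt3l, Tet1 and Dnmt3b, each lower (5.09% of all genes), and no member was higher (7.04% of all genes). Tet1 read 7.13 and 7.23 in EB WT, against 6.57 and 6.79 in EB HP1aKO, lower by 0.50 ± 0.11 (1.41-fold, adjusted p = 0.02733). Dnmt3b read 8.12 and 8.17 against 7.74 and 7.75, lower by 0.40 ± 0.09 (1.32-fold, adjusted p = 0.02824). Dnmt3l read 4.79 and 4.94 against 3.80 and 3.81 (adjusted p = 0.0009674), but all EB arrays were under the floor, the gene was tested because of its ESC arrays, and no fold is given. Without it 2 members differed, Tet1 and Dnmt3b. None of these groups overlapped.

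The other 35 members ranged from -0.28 (Lbr) to 0.17 (Suv39h2), with intervals within 1 log2 unit of 0. Dnmt3a differed by 0.10 (interval -0.09 to 0.29) and Mbd2 by 0.15 (interval -0.12 to 0.42). Both EB HP1aKO arrays lay below both EB WT arrays for 15 members (39.5%), against 23.8% of all genes, and above them for 3 (7.89%), against 34.9%. The other EB comparisons lay nearer to all genes. EB HP1bKO arrays lay below EB WT for 34.2% of members (28.9% of all genes) and above for 23.7% (27.5%). They lay below EB HP1aKO for 31.6% (35%) and above for 34.2% (28.2%). The median difference of EB HP1aKO minus EB WT was -0.07 over members and 0.03 over all genes. Tet1 and Dnmt3b both lost their calls when any 1 of these 4 arrays was left out, and also with 12 arrays and 1 weight per state, where Lbr and Dnmt3l passed. The equal spread over 12 arrays left no member, with 135 of all genes. In EB HP1aKO 9 of 16 pluripotency markers were lower and 1 higher (summed signal 2633 to 2805), 10 of 12 sarcomere markers were higher (15352 to 15460), and 6 of 10 fibroblast markers were higher (5353 to 5593). Neural markers were higher for 2 and lower for 3 of 8, endothelial and blood markers for 2 and 4 of 10, and visceral endoderm markers for 2 and 4 of 8. Their part was not tested.

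Compared directly, the EBs of the knockouts differed in 7 members (18.4%), against 19.9% of all genes. Each of the 7 was higher in EB HP1bKO (8.3% of all genes), and none was lower (11.6% of all genes). Tet2 read 5.91 and 5.95 in EB HP1bKO and 5.22 and 5.12 in EB HP1aKO, where both arrays were under the floor, at least 1.35-fold higher (adjusted p = 0.003733). Mbd2 was higher by 0.58 ± 0.12 and Mbd1 by 0.42 ± 0.09 (adjusted p = 0.01255 and 0.01265). Zfp57 read 7.92 and 7.91 against 7.58 and 7.25, higher by 0.50 ± 0.12 (adjusted p = 0.02144). Tet1 was higher by 0.46 ± 0.11 and Dnmt3a by 0.32 ± 0.08 (adjusted p = 0.02431 and 0.03136). Dnmt3l passed too (adjusted p = 0.0004231), with both groups under the floor, and without it 6 members differed. For all 7 the arrays of the groups were apart. Dnmt3b did not pass, at -0.22 with an interval from -0.43 to -0.01.

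Of the 6 above the floor in a group, Tet2 passed when any 1 of the 4 arrays was left out, and Mbd2 in 3 of 4 cases. Fewer of all genes passed with any of these arrays left out, and no member passed with an equal spread over 12 arrays. With 12 arrays and 1 weight per state 6 passed: Suv39h2, Dnmt3l, Tet2, Mbd1, Mbd2 and Lbr. A difference of 1.5-fold in every pair of arrays, a stricter form of the pairwise rule in the study's methods, was required as well. Tet2 alone met it, where 6.12% of all genes did. No member met it in EB HP1bKO minus EB WT (5.1% of all genes) or EB HP1aKO minus EB WT (3.26% of all genes). The rule also needed a signal above the floor on 1 or more of the compared arrays, which left out Dnmt3l, and the bound of 1.35-fold for Tet2, with EB HP1aKO set to the floor, lies under 1.5-fold. Pluripotency markers were higher in EB HP1bKO for 11 of 16 and lower for 2, and all 12 sarcomere markers and 7 of 8 neural markers were lower, their part again not tested.

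In ESCs no member passed the test in any of the 3 comparisons between genotypes, and limma called none of all 10880 genes (0%). This fit held no replicate block, although the replicate numbers paired the ESC arrays, and it included the 2 Cbx5-opposed libraries. At an unadjusted p under 0.05 there were 186 genes (1.71%) and no member for HP1bKO minus WT, 17 genes (0.156%) and no member for HP1aKO minus WT, and 163 genes (1.5%) and 1 member, Mbd1, for HP1bKO minus HP1aKO. Mbd1 read 6.92 and 6.87 in ESC HP1bKO and 6.48 and 6.45 in ESC HP1aKO, a difference of 0.43 ± 0.18. In this fit the ESC arrays could not show moderate differences, least of all for the members of greatest spread. Even Cbx1, the gene knocked out, did not pass in ESC HP1bKO minus ESC WT (adjusted p = 0.9998). It was lower there by 1.94 ± 0.28, or 3.83-fold. For Dnmt3b in ESC HP1bKO minus ESC WT the difference was 0.72 with a 95% interval from -0.47 to 1.92, and for Tet1 it was -0.53, from -1.91 to 0.85. The interval stayed within 1 log2 unit of 0 for 30 members in each comparison with ESC WT and for 29 in HP1bKO minus HP1aKO. Leaving out the Cbx5-opposed libraries gave no member call either. Dnmt3b then differed by 0.31, from -0.19 to 0.81, and Tet1 by 0.19, from -0.74 to 1.12, where each lone library was assumed to vary like the other ESC groups.

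The libraries themselves differed. Dnmt3b read 9.70 and 9.44 in the libraries labelled ESC WT 2 and ESC HP1aKO 2, and 10.54 to 10.90 in the other 4. Dnmt3a was also lowest in these, at 8.30 and 7.76, against 8.41 to 9.10. The reverse held for Tet1, at 10.24 and 9.98 against 8.45 to 9.52, and for Dnmt1, at 9.75 and 9.86 against 9.27 to 9.53. These are the 2 libraries whose Cbx5 opposed the label, and the values, chosen after they were seen, are given as a description only. Both are also replicate 2, so the split cannot be told apart from the replicate difference. Tet2 did not split in this way, at 6.89 in ESC HP1aKO 2 and 6.96 in ESC HP1bKO 2. Replicate 2 was higher than replicate 1 in all 3 ESC groups for 16 of 38 members, compared with 2529 of 10880 genes, among them Tet1, Tet2, Zfp57 and Dnmt3l. It was lower in all 3 for 5 members and 2009 genes. Fibroblast markers summed to 1793 and 399 in replicates 1 and 2 of ESC WT, to 1115 and 444 in ESC HP1aKO and to 848 and 456 in ESC HP1bKO. Pluripotency markers summed to 18089 and 27585, 21835 and 25634, and 17584 and 21477 in the same order. Fibroblast sums were thus higher in replicate 1 and pluripotency sums in replicate 2 of every ESC group, and their part in the members' spread was not tested.

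**Figure D5:**
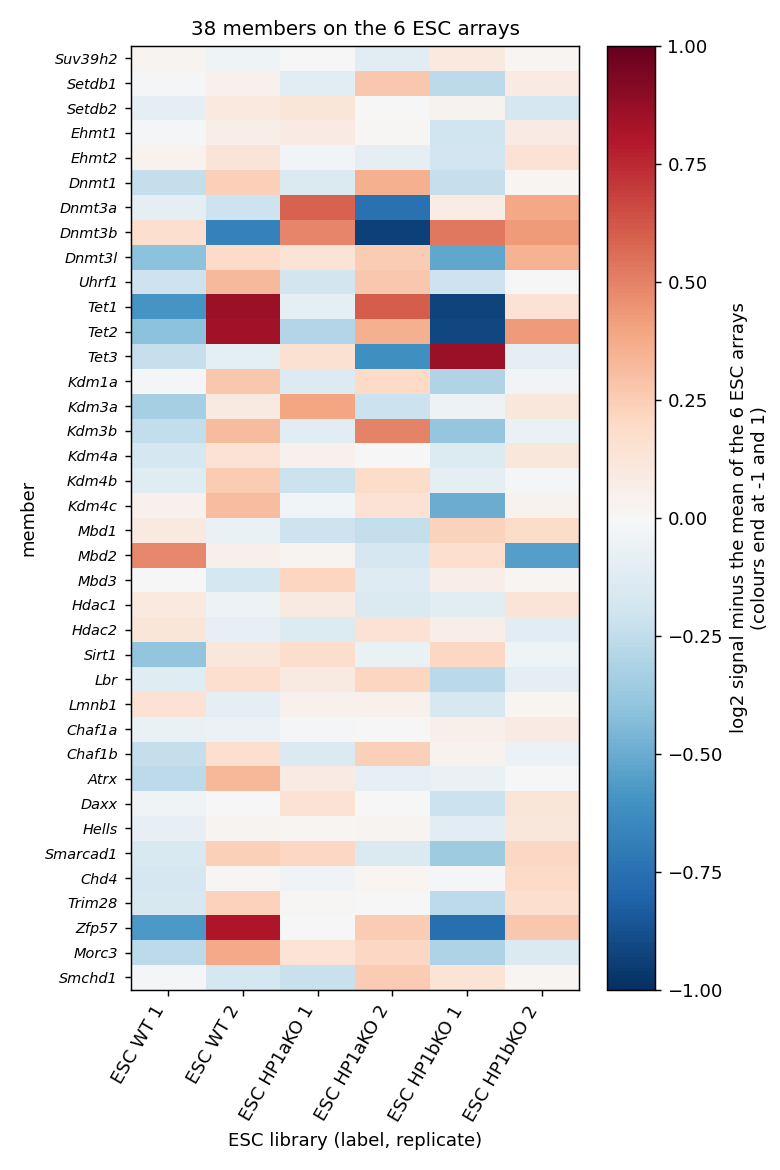
Log2 signal of the 38 members (y axis) on the 6 ESC arrays (x axis, by label and replicate) after subtraction of each member's mean over the 6; red is above and blue below the mean, with colours ending at -1 and 1. Dnmt3b is blue in ESC WT 2 and ESC HP1aKO 2 and red in the other 4 libraries, whereas Tet1 and Tet2 are red in replicate 2 of every ESC group.

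Whether a knockout acted differently in EBs and in ESCs was tested as the difference of the differences, which is also the gap between the EB minus ESC changes of knockout and WT. No member passed for HP1bKO (1.32% of all genes) or for HP1aKO (0.156% of all genes), with 2 and 1 members at an unadjusted p under 0.05, against 10.8% and 5.2% of all genes. The replicate numbers paired the ESC arrays, and with the number as a block among ESCs 3 calls appeared. The shares of all genes above are of the fit without the block. None is given for the fit with it, so these calls cannot be set against all genes. For HP1bKO, Dnmt3b was -1.35 ± 0.30 (adjusted p = 0.03282 with the block, 0.2301 without) and Mbd2 was 1.18 ± 0.26 (0.03087 with, 0.1431 without). For HP1aKO, Dnmt3l was -1.36 ± 0.25 (0.04713 with, 0.2803 without), and rested on EB values under the floor. The mean of Dnmt3b was higher in ESC HP1bKO than in ESC WT and lower in EB HP1bKO than in EB WT, and the reverse held for Mbd2. The difference in ESCs alone did not pass for either gene. The fit without the block called none of the 3 with all libraries. It therefore cannot show whether these calls depend on the Cbx5-opposed libraries. Without those libraries the ESC difference of HP1bKO minus WT was 0.308 for Dnmt3b (0.725 with them) and -0.67 for Mbd2 (-0.456 with them). For Dnmt3l in HP1aKO minus WT it was 0.551 (0.304 with them).

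Other genes of the same pathways, from a list of 83 of which 65 were tested, gave a wider context. Between ESC WT and EB WT 12 of the 65 rose, where 21.4% of all genes did, and 14 fell, where 13.8% of all genes did. Among those above the floor in both groups, the greatest rises were of Hmga2, an AT-hook chromatin protein (1.94), L3mbtl3, an MBT-domain protein (1.84), and the demethylase Kdm7a (1.16), and the greatest falls were of the chromodomain protein Cdyl2 (-2.65), the zinc finger protein Zfp809 (-1.08) and L3mbtl2 (-0.99). Mecom, Senp7 and Phf2 rose from under the floor in ESC WT, by at least 1.40-, 1.88- and 1.43-fold, and Morc1, Dppa3 and Apobec1 fell under it in EB WT, by at least 6.72-, 1.63- and 1.06-fold. In EB HP1bKO minus EB WT 8 were higher (9.42% of all genes) and 7 lower (9.36% of all genes). The higher ones were led by Mecom, a PR-domain zinc finger protein (1.23), the remodeller Chd3 (0.87) and Hmga2 (0.68). The lower ones were led by Kdm7a (-0.71), Uhrf2 (-0.52) and Baz1a (-0.51). In EB HP1aKO minus EB WT 4 were higher (7.04% of all genes), led by Hmga2 (0.63), Chd3 (0.56) and Lmna (0.39). Lower were 7 (5.09% of all genes), with Tasor of the HUSH complex at -0.54 and the ISWI ATPase Smarca5 at -0.49. Morc1, also among these 7, was under the floor in both groups. No gene of this list passed in ESCs.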

How the data were processed

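RNA of 12 samples in 6 groups was hybridised to Affymetrix arrays. The authors processed the scans with Affymetrix Expression Console and RMA (per the labels' processing notes; versions and genome build were not given in the sources used here) and deposited log2 signals from 1.55 to 13.6, used as deposited. RMA makes array distributions alike, so a shift shared by most genes cannot be seen. The study's methods name an exon array, whereas the platform annotation is that of Mouse Gene 1.0 ST. Of 35556 features 21789 carried 1 gene symbol, 1621 several and 12146 none here. The brightest feature stood for each of 19938 genes, and the 10880 genes that exceeded 45, or 5.49 in log2, on 1 or more of all 12 arrays were tested, whereas the methods asked this of the compared samples. Arrays have no read depth, and their number limits the precision.

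Comparisons within a state used limma 3.58.1 in R 4.3.3 on its 6 arrays (3 residual degrees of freedom). Comparisons across states used 12 arrays with 1 weight per state, 0.415 for ESC and 2.41 for EB (6 residual degrees of freedom). Calls needed a Benjamini-Hochberg adjusted p under 0.05, and scripts were tested on simulated data. Replicate differences of the ESC groups correlated at 0.401, 0.497 and 0.300, so that the numbers paired the ESC arrays, unlike those of EBs (0.112, -0.454 and -0.092). Members and lists were chosen with earlier results of these data known. Values per array are given for members called in a knockout comparison and for the greatest called rise and fall of each role group in WT, and at most 3 rises and 3 falls of the other pathway genes are named. Mbd1 in ESCs and some libraries' values were chosen after they were seen. Alternatives were other weights, a replicate block, a floor of 100 or none, centring on the median, the mean of a gene's features, a 1.5-fold rule, leaving out arrays and, chosen after the data were seen, the floor on the compared arrays.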

Additional observations from a re-analysis of the deposited data

How the results depend on the processing

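Of 58 calls of single members, 20 passed under every alternative run, and none reversed. All 20 were EB minus ESC calls, and no call between genotypes in EBs passed under every alternative. Over these alternatives 630 of 736 values passed and 106 fell below the threshold with the same sign. With equal weights on all 12 arrays the members called in EBs went to 0 in each of the 3 comparisons (all genes: 353, 135 and 406). The 1.5-fold rule left 0, 0 and 1 (5.1%, 3.26% and 6.12% of all genes). For EB HP1aKO minus EB WT, 5 members passed after centring and 1 with no floor. This 1 was Dnmt3l, under the floor on all EB arrays. Tet1 and Dnmt3b, which lay above the floor, passed neither with no floor nor with an array left out. Leaving out 1 array gave 3 to 5 members for EB HP1bKO minus EB WT, 1 to 1 for EB HP1aKO minus EB WT, and 3 to 6 for EB HP1bKO minus EB HP1aKO. It gave 7 to 13 for EB minus ESC in WT, 12 to 14 in HP1aKO and 3 to 14 in HP1bKO. Centring shifted every EB minus ESC difference by -0.127 to -0.132 and moved the share of higher calls among all genes from 60.7% to 47.2% in WT, from 60% to 46.9% in HP1aKO and from 59.7% to 45.8% in HP1bKO. Members then split into 3 higher and 12 lower, 3 and 14, and 3 and 13. With the replicate block among ESCs, 2 members passed for the state difference of HP1bKO and 1 for that of HP1aKO, with no share of all genes given for that fit. The block changed no other count of members by over 1.5 times. In EBs, where the numbers did not pair the arrays, the block within the state gave 4, 2 and 6 members. With 2 arrays a group, a wider spread in ESCs and no block in the main fit, moderate differences in ESCs could not be shown. Even Cbx1, 3.83-fold lower in ESC HP1bKO than in ESC WT, did not pass. With the floor asked of the compared arrays only, an alternative chosen after seeing the data, Dnmt3l was not tested in EBs and 6, 2 and 6 members passed there. The causes of these changes were not tested.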
